A study of Mus musculus with 18 samples.

Results

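In activated mouse CD4 T cells, 140 genes had a difference between the 2 genotype labels that depended on the culture, out of 11735 genes tested. For each gene, the genotype difference (libraries labelled CD4Cre+ minus libraries labelled CD4Cre-, on the log2 scale) was taken in the culture called Tfh_5 and in the culture called Tfh_A, and the second was subtracted from the first. This difference of differences is called the interaction below. A gene was called where its adjusted p in edgeR's quasi-likelihood test was under 0.05. The values come from 12 of the 18 libraries of the series, 3 in each of 4 groups, and the other 6, from a culture called Tfh_1, shared the fit.

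The 4 groups were CD4Cre+ Maf fl/fl cells in Tfh_5, CD4Cre- Maf fl/fl cells in Tfh_5, CD4Cre+ Maf fl/fl cells in Tfh_A and CD4Cre- Maf fl/fl cells in Tfh_A. All groups carry the floxed Maf allele, and the CD4 promoter that drives Cre in the CD4Cre transgene is active in T cells. Naive CD4 T cells were activated for 3.5 days on plates coated with antibodies against CD3 and CD28, stained and sorted, and RNA was read from the 3' end of transcripts after a 50 ng input, as the labels' protocols have it. What the cultures contained, and the age and number of the mice, were not found in the labels, and nothing says that replicates came from separate animals. P-values therefore measure the spread between these libraries, which may be technical.

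Maf encodes c-Maf, a basic leucine zipper transcription factor that T follicular helper (Tfh) cells and interleukin-17-producing Th17 cells both use. TGF-β is a cytokine that, depending on the cytokines beside it, takes part in the formation of regulatory T cells, Th17 cells and, in some settings, Tfh cells. The title of the series places c-Maf between TGF-β and the choice of a Tfh or a Th17 fate.

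Maf transcripts went against the genotype labels. Maf had 397, 331 and 319 CPM (counts scaled to an equal library size) in Tfh_5 libraries labelled CD4Cre+, against 0 counts in all 3 libraries labelled CD4Cre-, which is at least 2392-fold higher with 3 counts over the group as a floor. Its values in Tfh_A were 22.8, 8.07 and 5.03 CPM in libraries labelled CD4Cre+, against 0.270, 0 and 0 CPM in those labelled CD4Cre-. The groups labelled CD4Cre+ were thus the ones with Maf transcripts in both cultures. In Tfh_1 Maf summed to 4514 counts in libraries labelled CD4Cre+ and 15 in those labelled CD4Cre-. The labels do not say which exon the floxed allele removes, so reads from the transcript's 3' end may or may not test the deletion. Libraries labelled CD4Cre- carry the same floxed allele and were near 0 for Maf. Why counts and labels differ was not tested. The groups keep their label names throughout, and every direction below depends on them. The interaction of Maf itself was not called (adjusted p = 0.571), except with no filter on low counts (adjusted p = 0.0263).

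Total counts ran from 6424874 to 9236153 per library. 2 unnamed identifiers took 19.7% to 46.2% of a library, on average 39.8% ± 2.30 in Tfh_5 libraries labelled CD4Cre+, 40.5% ± 3.29 in those labelled CD4Cre-, 36.6% ± 9.38 in Tfh_A libraries labelled CD4Cre+ and 25.1% ± 7.56 in those labelled CD4Cre- (SD, n = 3 each). All 12 markers of CD4 T cells were detected in every group, though not at equal levels. Their sum ran from 4260 to 4763 CPM in Tfh_5 libraries labelled CD4Cre+ and from 3388 to 3923 CPM in those labelled CD4Cre-. In Tfh_A it ran from 2783 to 3272 CPM in libraries labelled CD4Cre+ and from 2594 to 2691 CPM in those labelled CD4Cre-. Interactions were called for 0 of these 12 genes (median 0.548). Of the B cell markers, Cd79b and Pax5 were at 0 counts in all 4 groups, and of the myeloid markers Lyz2, Adgre1, Flt3 and Mpeg1 were. The summed myeloid markers ran from 148 to 213 CPM in Tfh_5 libraries labelled CD4Cre+ and from 48.5 to 125 CPM in those labelled CD4Cre-, carried by Ctss (means of 179.6 and 76.4 CPM). In Tfh_A they ran from 14.02 to 68.9 CPM in libraries labelled CD4Cre+ and from 38.1 to 69.1 CPM in those labelled CD4Cre-. The summed NK and innate lymphoid markers, which include Il2rb, ran from 299 to 584 CPM in Tfh_5 libraries labelled CD4Cre+ and from 411 to 512 CPM in those labelled CD4Cre-. In Tfh_A they ran from 572 to 596 CPM in libraries labelled CD4Cre+ and from 544 to 570 CPM in those labelled CD4Cre-. Among them, Ncr1, Klrb1c and Klra1 were at 0 in all 4 groups, while Nkg7 averaged 178 CPM in Tfh_A libraries labelled CD4Cre+ and 187 CPM in those labelled CD4Cre-, and Gzmb 122 CPM and 102 CPM. In Tfh_5 Nkg7 averaged 3.60 CPM in libraries labelled CD4Cre+ and 14.3 CPM in those labelled CD4Cre-. The part of such cells in the results was not tested. 1 library, replicate 5 of the Tfh_5 libraries labelled CD4Cre-, lay at -66.9 on principal component 2, where the other 2 libraries of that group lay at -20.5 and -24.7, and 10242 genes were above 0 in it, fewer than in any of the other 11. Without it 123 genes were called, 108 of them among the 140.

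Of the 140 genes, which are 1.19% of those tested, 39 (0.332% of the genes tested) had an interaction above 0 and 101 (0.861%) one below 0. The median interaction over all genes tested was -0.008. At an unadjusted p under 0.05 there were 1284 genes. The threshold fell in a gradual series of values, with 0.0487 as the highest adjusted p called and 0.0504 as the lowest not called. The count fell to 81 without replicate 1 of the Tfh_A libraries labelled CD4Cre+, to 87 without replicate 5 of those labelled CD4Cre-, and to 88 in a fit of the 12 libraries alone. No gene of the 140 changed the sign of its interaction in any alternative without a replicate block. However, only 55 of the 140 were called in all 18 such alternatives, 10 of the 39 above 0 and 45 of the 101 below 0. Of the 140, 2 have no symbol in the reference used here.

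The genotype difference of these genes lay mainly in Tfh_5. There, 126 of the 140 were called, 35 higher and 91 lower in libraries labelled CD4Cre+ (3.24% of all genes tested were called in that comparison, 1.19% higher and 2.05% lower). In Tfh_A 0 of the 140 were called (0% of all genes tested in edgeR), although 606 genes in all, 40 of them among the 140, had an unadjusted p under 0.05. Over all genes DESeq2 called 78 and limma-voom 6 in Tfh_A, with 11 and 5 of the 140 among them. The absolute genotype difference was larger in Tfh_5 for 134 genes, and for 122 the 2 differences had opposite signs. The interaction and these components come from 1 fit and share libraries, so the counts describe the 140 genes and are not a second test of them. The plot of genotype differences in the 2 cultures shows the genes spread along the Tfh_5 axis and near 0 on the Tfh_A axis.

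**Figure D1:**
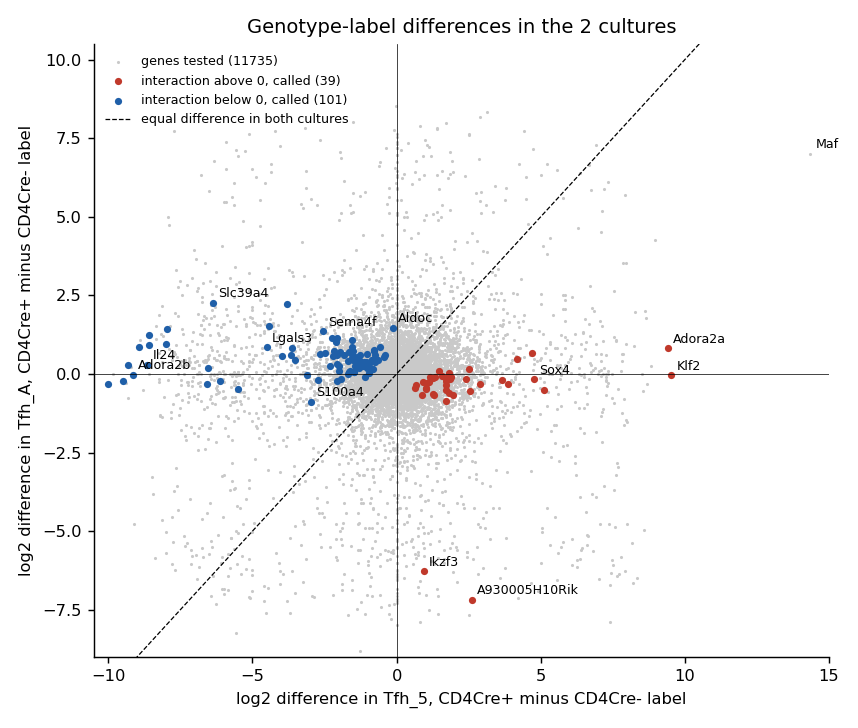
Each point is a gene, placed by its log2 genotype difference (label CD4Cre+ minus label CD4Cre-) in Tfh_5 on the horizontal axis and in Tfh_A on the vertical axis, with all 11735 genes tested in grey, the 39 called interactions above 0 in red and the 101 below 0 in blue. The dashed line marks equal differences. Most called genes lie near 0 in Tfh_A, while Ikzf3 and A930005H10Rik lie far below it, and fitted values of genes with a group at 0 counts depend on the prior count.

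Libraries of the 2 labels did not overlap in Tfh_5 for 137 of the 140 genes (16.6% of all genes tested) and in Tfh_A for 46 (13% of all genes tested). Set out by culture instead, 77 genes differed between Tfh_5 and Tfh_A in libraries labelled CD4Cre+ alone and 40 in libraries labelled CD4Cre- alone. A further 12 differed in both labels in the same direction and 4 in both in opposite directions. Over all genes tested, 5.39% were called within the CD4Cre+ label and 5.08% within the CD4Cre- label. These shares include genes called in both labels. No share over all genes tested was taken for calls in a label alone or in both. Of the 101 genes with an interaction below 0, 69 were lower in Tfh_5 than in Tfh_A within the CD4Cre+ label (3% of all genes tested) and 32 were higher within the CD4Cre- label (3.17% of all genes tested). Of the 39 above 0, 21 were higher in Tfh_5 within the CD4Cre+ label (2.39% of all genes tested) and 15 lower within the CD4Cre- label (1.91% of all genes tested).

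**Figure D2:**
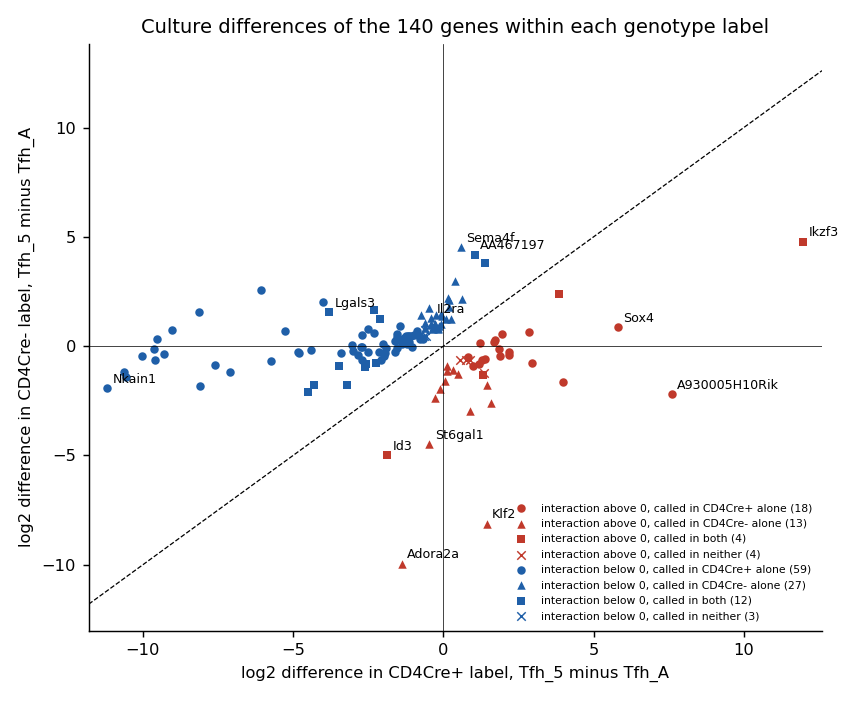
The log2 difference between cultures (Tfh_5 minus Tfh_A) of the 140 genes is shown in libraries labelled CD4Cre+ on the horizontal axis and in libraries labelled CD4Cre- on the vertical axis. Marker shapes give the label in which the culture difference was called, and the dashed line marks equal differences. Sox4 changed with the culture within the CD4Cre+ label, Klf2 and Adora2a within the CD4Cre- label, and Lgals3 in opposite directions within the 2, and fitted values of genes with a group at 0 counts depend on the prior count.

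Several galectin, S100 and cytoskeletal genes were low in Tfh_5 libraries labelled CD4Cre+ relative to those labelled CD4Cre-. Of 17 tested genes on this list, 7 were called with an interaction below 0 and 0 above it, and the list's median was -1.11, against -0.008 over all genes tested. Lgals3 encodes galectin-3, a sugar-binding protein, and lies at chromosome 14, positions 47373860 to 47386167 (GRCm38.p6). It had 6.65, 12.9 and 13.04 CPM in Tfh_5 libraries labelled CD4Cre+, against 240.0, 202 and 299 CPM in those labelled CD4Cre-. The Tfh_A values were 217, 149 and 89.1 CPM in libraries labelled CD4Cre+, against 120.1, 67.9 and 64.7 CPM in those labelled CD4Cre-. The labels were far apart in Tfh_5 and overlapped in Tfh_A, where the CD4Cre+ label tended to the higher side. The genotype difference was -4.50 ± 0.34 in Tfh_5 and 0.85 ± 0.29 in Tfh_A, and the interaction was -5.35 ± 0.44 (log2 ± SE, adjusted p = 3.71e-10), the smallest adjusted p of all.

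S100a6 and S100a4 encode small calcium-binding proteins and lie close together on chromosome 3, at positions 90612894 to 90614414 and 90603770 to 90606045. S100a6 had 69.5, 39.7 and 74.9 CPM in Tfh_5 libraries labelled CD4Cre+, against 369, 419 and 434 CPM in those labelled CD4Cre-. In Tfh_A it had 1265, 1317 and 1019 CPM in libraries labelled CD4Cre+, against 1450.0, 1293 and 1397 CPM in those labelled CD4Cre-. It was thus lower in Tfh_5 than in Tfh_A under both labels, by more under the CD4Cre+ label (interaction -2.53 ± 0.28, adjusted p = 2.40e-07). S100a4 had 38.4, 51.7 and 53.3 CPM in Tfh_5 libraries labelled CD4Cre+, against 388, 308 and 422 CPM in those labelled CD4Cre-. Its Tfh_A values were 360.2, 333 and 250.1 CPM in libraries labelled CD4Cre+, against 569, 519 and 649.8 CPM in those labelled CD4Cre-. For S100a4 the CD4Cre+ label was the lower one in both cultures without overlap, and the gap was wider in Tfh_5 (interaction -2.08 ± 0.34, adjusted p = 0.000252).

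The other 4 called genes of the list were Vim, which encodes the intermediate filament vimentin, Anxa2, a membrane-binding annexin, S100a10, its binding partner, and Lgals1, which encodes galectin-1. Vim had 283, 151 and 253 CPM in Tfh_5 libraries labelled CD4Cre+, against 831, 1025 and 856 CPM in those labelled CD4Cre-. In Tfh_A its ranges overlapped, at 711, 846 and 1196 CPM under the CD4Cre+ label against 739, 1066 and 765 CPM under the CD4Cre- label, and the interaction was -2.08 ± 0.31 (adjusted p = 5.69e-05). Interactions of Anxa2, S100a10 and Lgals1 were -1.95 ± 0.29, -1.68 ± 0.26 and -1.11 ± 0.25 (adjusted p = 8.37e-05, 0.000121 and 0.0143). Across the alternatives without a replicate block, this list kept at least 6 genes called.

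Both metallothionein genes, whose products bind zinc and other metal ions, were among the 140 and were singled out after their values were seen. Mt1 had 133, 129.7 and 116 CPM in Tfh_5 libraries labelled CD4Cre+, against 662, 514 and 519 CPM in those labelled CD4Cre-. In Tfh_A the order was turned round, at 734, 589 and 566 CPM in libraries labelled CD4Cre+ against 526, 286 and 323 CPM in those labelled CD4Cre-. The interaction was -2.90 ± 0.28 for Mt1 (adjusted p = 1.72e-08) and -3.36 ± 0.49 for Mt2 (adjusted p = 0.000623). Mt2 had 136, 65.2 and 36.5 CPM in Tfh_5 libraries labelled CD4Cre+, against 425, 350.3 and 337 CPM in those labelled CD4Cre-, and values were not whole in 12 of 18 libraries. Neither genotype difference in Tfh_A was called (Mt1 0.74 ± 0.19, adjusted p = 0.330, and Mt2 1.14 ± 0.34, adjusted p = 0.704). Slc39a4, which encodes a zinc importer, summed to 2 counts in Tfh_5 libraries labelled CD4Cre+ and 171 in those labelled CD4Cre-, a 91.1-fold lower level (95% counting interval 24.8 to 758). Its call was lost in 6 of 18 alternatives (highest adjusted p 0.133).

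The 2 metallothionein genes lie side by side on chromosome 8, and RefSeq promoters (250 bases before to 50 after the start, GRCm38.p6) are shown because they carry the core letters of the metal response element, the site of the zinc-sensing factor MTF-1. The letters searched on both strands were TGCACNC and TGCGCNC, and matches are in capitals. The Mt1 promoter is chr8:94178839-94179138, plus strand, with 3 matches, and the Mt2 promoter is chr8:94172368-94172667, plus strand, with 4.
Mt1: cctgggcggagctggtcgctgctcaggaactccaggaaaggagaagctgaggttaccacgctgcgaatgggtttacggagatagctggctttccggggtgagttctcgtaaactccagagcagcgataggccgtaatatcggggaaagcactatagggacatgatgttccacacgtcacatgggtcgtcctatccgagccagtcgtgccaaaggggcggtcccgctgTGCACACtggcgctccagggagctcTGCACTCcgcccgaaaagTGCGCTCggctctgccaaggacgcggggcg
Mt2: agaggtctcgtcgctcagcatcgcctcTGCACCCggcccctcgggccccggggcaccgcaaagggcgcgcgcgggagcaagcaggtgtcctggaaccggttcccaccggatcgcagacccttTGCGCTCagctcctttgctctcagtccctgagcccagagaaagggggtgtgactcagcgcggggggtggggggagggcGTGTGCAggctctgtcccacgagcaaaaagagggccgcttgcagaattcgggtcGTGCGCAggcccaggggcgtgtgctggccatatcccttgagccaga
At least 3 matches were present in 3.18% of 11446 promoters of tested genes. At least 1 match was found in 39.1% of 92 promoters of genes with an interaction below 0 and in 38% of 50 promoters of genes with one above 0, against 35.7% of promoters of all tested genes. A match is a description of letters and not a site shown to be used.

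Genotype differences of glycolysis genes, which encode enzymes and transporters that break glucose down to lactate, were lower in Tfh_5 than in Tfh_A. Of 21 tested genes, 7 were called with an interaction below 0 and 0 above it, and all 21 interactions were below 0 (median -0.956). The called genes were Hk2, Bnip3, Pgk1, Pfkp, Aldoc, Ldha and Slc16a3. Hk2 encodes hexokinase 2, which phosphorylates glucose at the entry to glycolysis. It had 35.1, 39.9 and 29.4 CPM in Tfh_5 libraries labelled CD4Cre+, against 127, 138 and 136 CPM in those labelled CD4Cre-. Its values in Tfh_A were 198, 243 and 184 CPM in libraries labelled CD4Cre+, against 230.4, 230.5 and 235 CPM in those labelled CD4Cre-. The labels were apart in Tfh_5 and overlapped in Tfh_A, and the interaction was -1.79 ± 0.30 (adjusted p = 0.000403).

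Bnip3, a mitochondrial protein of the BCL2 family that was placed on this list, had 146, 99.6 and 69.995 CPM in Tfh_5 libraries labelled CD4Cre+, against 276, 278 and 217 CPM in those labelled CD4Cre- (interaction -1.61 ± 0.32, adjusted p = 0.00392). Pgk1, phosphoglycerate kinase, had 187, 209 and 212 CPM in Tfh_5 libraries labelled CD4Cre+, against 388, 366 and 345 CPM in those labelled CD4Cre-. Its Tfh_A values were 404, 416 and 436 CPM under the CD4Cre+ label against 389, 378 and 369 CPM under the CD4Cre- label. They did not overlap and stood in the opposite order, but that difference was small and not called (0.15 ± 0.17). The interaction was -1.001 ± 0.24 (adjusted p = 0.0192). Aldoc, an aldolase, differed in the other culture: its genotype difference was -0.13 ± 0.27 in Tfh_5 and 1.47 ± 0.28 in Tfh_A (adjusted p = 0.925 and 0.0715), and its interaction was -1.60 ± 0.39 (adjusted p = 0.0241). Interactions of Pfkp, Ldha and the lactate exporter Slc16a3 were -1.35 ± 0.32, -1.02 ± 0.25 and -1.12 ± 0.29 (adjusted p = 0.0207, 0.0306 and 0.0479).

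The number of glycolysis genes called varied with the libraries in the fit. Without replicate 5 of the Tfh_A libraries labelled CD4Cre-, and in a fit of the 12 libraries alone, 2 of its genes were called. The count was 3 without replicate 6 of the Tfh_A libraries labelled CD4Cre+, and 4 without replicate 1 of the same group, without replicate 2 or replicate 4 of the Tfh_A libraries labelled CD4Cre-, or without replicate 6 of the Tfh_5 libraries labelled CD4Cre+. It was 9 with DESeq2. In each of these the list's median was below 0, between -1.001 and -0.690.

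**Figure D3:**
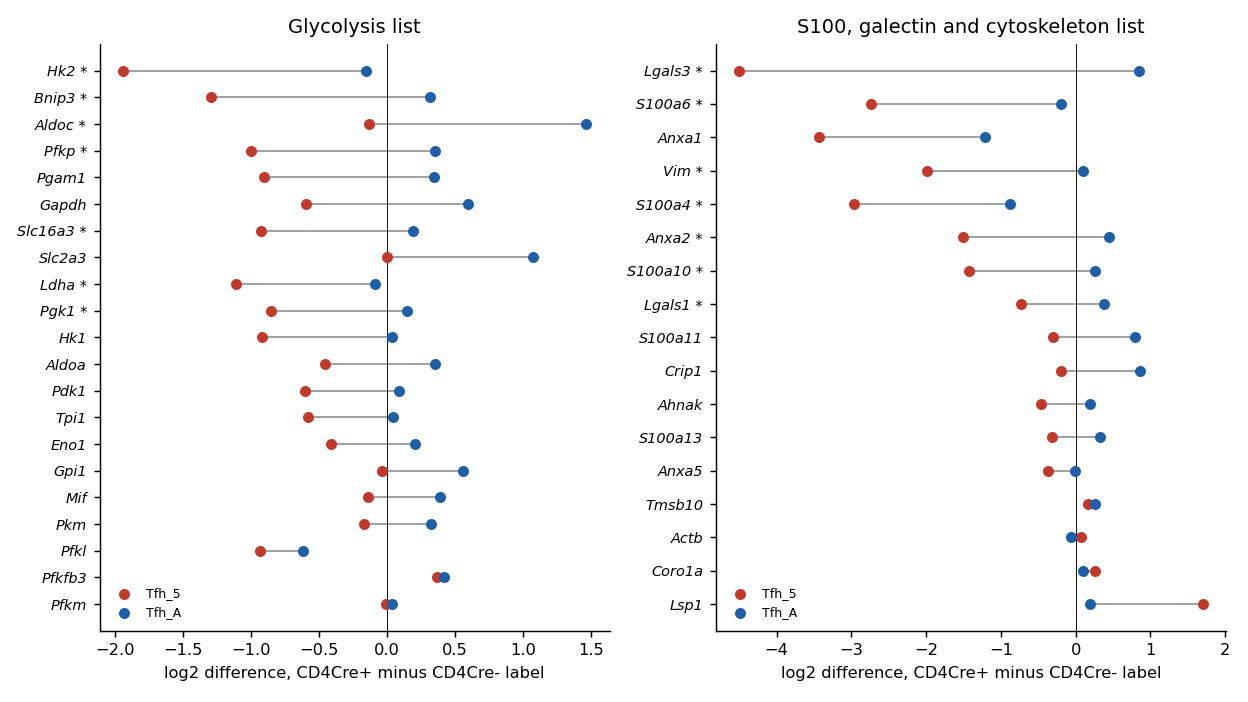
For each tested gene of the glycolysis list (left) and of the S100, galectin and cytoskeleton list (right), the log2 genotype difference (label CD4Cre+ minus label CD4Cre-) is shown in Tfh_5 in red and in Tfh_A in blue, with called interactions starred. Genes are ordered by interaction, the lowest at the top. In the glycolysis list the red point lies left of the blue point for all 21 genes, and in the other list for 14 of 17.

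Further genes with an interaction below 0 were singled out after their values were seen. Hilpda, a lipid droplet protein, had 71.01, 46.7 and 27.9 CPM in Tfh_5 libraries labelled CD4Cre+, against 246, 170.0 and 197 CPM in those labelled CD4Cre- (interaction -2.69 ± 0.34, adjusted p = 4.32e-06). Ndrg1, a stress-responsive gene, had 8.61, 32.1 and 12.01 CPM in Tfh_5 libraries labelled CD4Cre+, against 90.2, 81.2 and 72.6 CPM in those labelled CD4Cre- (interaction -2.77 ± 0.43, adjusted p = 0.000121). Fam162a, a mitochondrial protein gene, and Ero1a, an oxidase of the endoplasmic reticulum, had interactions of -2.10 ± 0.25 and -2.25 ± 0.41 (adjusted p = 1.28e-06 and 0.00138). None of these 4 genotype differences was called in Tfh_A, where they lay between 0.26 and 0.61. Libraries of the 2 labels overlapped there for Ero1a. For Hilpda, Ndrg1 and Fam162a they did not, with the CD4Cre+ label higher (13% of all genes tested did not overlap in Tfh_A). Ndrg1 there had 145, 140 and 138 CPM in libraries labelled CD4Cre+, against 99.5, 90.1 and 96.0 CPM in those labelled CD4Cre-. Vegfa, which encodes a growth factor for blood vessels, had 0 counts in Tfh_5 libraries labelled CD4Cre+ and 91 in those labelled CD4Cre-, at least 32.3-fold lower. The call of Vegfa was lost in 4 of 18 alternatives (highest adjusted p 0.119).

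Promoters of Pgk1 and Ldha are shown because some promoters of this group carry the letters ACGTG, the core of the hypoxia response element. This motif was added to the others after the values were seen. It was searched on both strands, so that CACGTG counts as 2 matches, and matches are in capitals. The Pgk1 promoter is chrX:106186850-106187149, plus strand, and 1 of the 2 Ldha promoters in the table is chr7:46845554-46845853, plus strand (both GRCm38.p6, RefSeq). The other Ldha promoter, which is not shown, had 0 matches.
Pgk1: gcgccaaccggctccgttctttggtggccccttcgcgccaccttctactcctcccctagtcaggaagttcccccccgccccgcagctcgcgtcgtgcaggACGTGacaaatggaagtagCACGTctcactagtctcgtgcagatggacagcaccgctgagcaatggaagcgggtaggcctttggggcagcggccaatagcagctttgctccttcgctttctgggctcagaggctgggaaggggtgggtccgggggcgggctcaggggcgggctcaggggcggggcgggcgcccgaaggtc
Ldha: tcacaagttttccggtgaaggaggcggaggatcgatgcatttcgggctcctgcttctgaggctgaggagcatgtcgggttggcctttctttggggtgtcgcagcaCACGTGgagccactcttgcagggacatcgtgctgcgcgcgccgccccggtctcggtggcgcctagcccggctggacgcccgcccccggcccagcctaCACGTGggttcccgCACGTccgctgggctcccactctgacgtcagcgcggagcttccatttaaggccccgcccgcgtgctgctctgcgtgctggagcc
Of the 7 called glycolysis genes, 6 had the letters in at least 1 promoter, and Pfkp had 0 matches. That is a count of genes, with no share of genes over all those tested beside it, and the shares below are of promoters. The letters were in 38% of 92 promoters of genes with an interaction below 0 and in 14% of 50 promoters of genes with one above 0, against 26% of promoters of all tested genes. Promoters were matched for 106 of the 140 genes. The Maf half-site TGCTGA was in 26.1% of the promoters of genes below 0 and 16% of those of genes above 0, against 14.9% of promoters of tested genes. For the AP-1 letters TGANTCA the shares were 12%, 8% and 5.01% in the same order. The other planned motifs gave 20.7%, 22% and 15.8% for SMAD (CAGACA) and 67.4%, 76% and 62.9% for KLF (CACCC). For STAT (TTCNNNGAA) the shares were 8.7%, 2% and 6.73%, and for TCF/LEF (CTTTGAT) 1.09%, 0% and 2.63%. Over all promoters in the reference, of tested genes or not, TGCTGA was in 19.5% and TGANTCA in 7.81%. In the 4 genes named by rule with the largest absolute interaction and a promoter in the table (Plcxd1, A930005H10Rik, Dusp28 and Ermn), TGCTGA was present in Ermn alone, with 1 match, and TGANTCA in none. CACCC was present in Plcxd1, A930005H10Rik and Dusp28, and the other planned letters in none.

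The α chain of the interleukin-2 receptor, Il2ra, had a difference between labels in Tfh_5 and almost none in Tfh_A. It had 223, 229 and 267 CPM in Tfh_5 libraries labelled CD4Cre+, against 887, 660.0 and 746 CPM in those labelled CD4Cre-. The Tfh_A values were 325, 283 and 344 CPM in libraries labelled CD4Cre+, against 311, 296 and 345 CPM in those labelled CD4Cre-. The genotype difference was -1.68 ± 0.18 in Tfh_5 and 0.00 ± 0.18 in Tfh_A, which made the interaction -1.68 ± 0.25 (adjusted p = 8.37e-05). Of 21 tested genes of the interleukin-2 receptor and STAT5 list, 3 were called below 0 (Il2ra, Bcl2 and Il7r) and 0 above, with a median of -0.153. Bcl2, an inhibitor of cell death, had 9.82, 2.73 and 7.75 CPM in Tfh_5 libraries labelled CD4Cre+, against 23.9, 20.5 and 41.3 CPM in those labelled CD4Cre-. Its Tfh_A values were between 117 and 171 CPM under both labels (interaction -2.39 ± 0.55, adjusted p = 0.0184). Il7r, the α chain of the interleukin-7 receptor, had an interaction of -1.93 ± 0.45 (adjusted p = 0.0191). Calls of Bcl2 and Il7r were lost in 4 and 5 of 18 alternatives.

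2 secreted products were nearly undetected in Tfh_5 libraries labelled CD4Cre+ and clearly detected in the 3 other groups of the interaction. Il24 encodes interleukin-24, a cytokine of the interleukin-10 family, at chromosome 1, positions 130882074 to 130887411. It summed to 1 count in Tfh_5 libraries labelled CD4Cre+ and 505 in those labelled CD4Cre-, a 538-fold lower level (95% counting interval 96.1 to 21290). In Tfh_A it had 47.7, 22.7 and 46.7 CPM in libraries labelled CD4Cre+, against 48.5, 13.6 and 32.97 CPM in those labelled CD4Cre-, which overlapped (interaction, adjusted p = 1.69e-05). Penk encodes proenkephalin, the precursor of opioid peptides. Penk had 0, 1.04 and 0.387 CPM in Tfh_5 libraries labelled CD4Cre+, against 22.04, 43.5 and 75.9 CPM in those labelled CD4Cre-. Its Tfh_A values were 65.8, 75.4 and 154 CPM in libraries labelled CD4Cre+, against 90.7, 82.6 and 87.7 CPM in those labelled CD4Cre- (interaction -6.72 ± 1.08, adjusted p = 0.00184). In Tfh_1 Il24 summed to 7 counts in libraries labelled CD4Cre+ and 1766 in those labelled CD4Cre-. Penk summed there to 11 counts in libraries labelled CD4Cre+ and 230 in those labelled CD4Cre-. Il24 and Penk are the 2 of 28 tested genes called on the list of secreted cytokines and mediators, and Il24 is the 1 of 20 called on the Th17 list.

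The 2 A2 adenosine receptors, which raise cyclic AMP when adenosine binds, moved in opposite directions. Adora2b had 0 counts in all 3 Tfh_5 libraries labelled CD4Cre+, against 5.70, 10.8 and 12.04 CPM in those labelled CD4Cre-, at least 68.2-fold lower. Adora2a had 17.5, 8.70 and 7.75 CPM in Tfh_5 libraries labelled CD4Cre+, against 0 counts in all 3 labelled CD4Cre-, at least 76.03-fold higher. In Tfh_A both were detected in all 6 libraries. The labels overlapped there for Adora2b, at 32.5, 26.02 and 17.003 CPM under the CD4Cre+ label against 29.8, 32.4 and 14.8 CPM under the CD4Cre- label. Adora2a there had 21.4, 34.1 and 33.2 CPM under the CD4Cre+ label against 11.7, 19.1 and 19.2 CPM under the CD4Cre- label, without overlap. Each genotype label therefore lacked detectable transcripts of 1 of the 2 receptors in Tfh_5 (interaction, adjusted p = 0.000252 for Adora2b and 0.00623 for Adora2a).

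Other genes at 0 counts in Tfh_5 libraries labelled CD4Cre+ were Ermn, Dusp28, Nkain1, Plcxd1, Pask, Cstdc4 and Fcmr. Against libraries labelled CD4Cre- they were at least 29.5-fold (Cstdc4) to at least 120.4-fold lower (Dusp28). In Tfh_A all 7 were detected under both labels. Plcxd1 was also at 0 in 1 Tfh_5 library labelled CD4Cre- (9.85, 9.55 and 0 CPM). Calls of Ermn and Cstdc4 held in all 18 alternatives, while those of Nkain1 and Pask held in 8 of 18 each.

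Sema4f and AA467197 showed the interaction mainly through the CD4Cre- label, and were singled out after their values were seen. Sema4f encodes a membrane-bound semaphorin. It had 22.4, 21.3 and 24.7 CPM in Tfh_5 libraries labelled CD4Cre+, against 156, 116 and 133 CPM in those labelled CD4Cre-. Its values in Tfh_A were 22.1, 14.9 and 8.50 CPM in libraries labelled CD4Cre+, against 4.32, 6.14 and 7.09 CPM in those labelled CD4Cre-. The culture difference (Tfh_5 minus Tfh_A) was 0.59 within the CD4Cre+ label and 4.52 within the CD4Cre- label (adjusted p = 0.389 and 6.28e-10), and the interaction was -3.93 ± 0.51 (adjusted p = 6.69e-06). AA467197 had 199, 129.7 and 180.0 CPM in Tfh_5 libraries labelled CD4Cre+, against 779.7, 910.0 and 1124 CPM in those labelled CD4Cre- (interaction -3.13 ± 0.34, adjusted p = 2.40e-07). In Tfh_A it had 101, 49.0 and 96.7 CPM under the CD4Cre+ label against 70.7, 41.1 and 44.0 CPM under the CD4Cre- label. Unlike that of Sema4f, its culture difference was called within both labels, at 1.04 for CD4Cre+ and 4.18 for CD4Cre- (adjusted p = 0.00469 and 2.83e-13). Its paralog Ndufa4 had 52.3, 34.5 and 67.5 CPM in Tfh_5 libraries labelled CD4Cre+, against 14.4, 15.1 and 17.4 CPM in those labelled CD4Cre- (interaction 2.07 ± 0.49, adjusted p = 0.0210). Ndufa4 values were not whole in 16 of 18 libraries, so reads may be shared with copies and its call is uncertain. Values not whole in 14 or more of the 18 libraries were found for 25 of the 140 genes, among them Pgk1 and Ldha (18 each), Bnip3, Lgals1 and Fdps (17 each) and Vim and S100a10 (14 each), and their calls carry the same doubt. It also holds for Rnaset2a and Rnaset2b, which are close copies with interactions of 1.93 ± 0.45 and 1.98 ± 0.47 (adjusted p = 0.0207 and 0.0192).

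**Figure D4:**
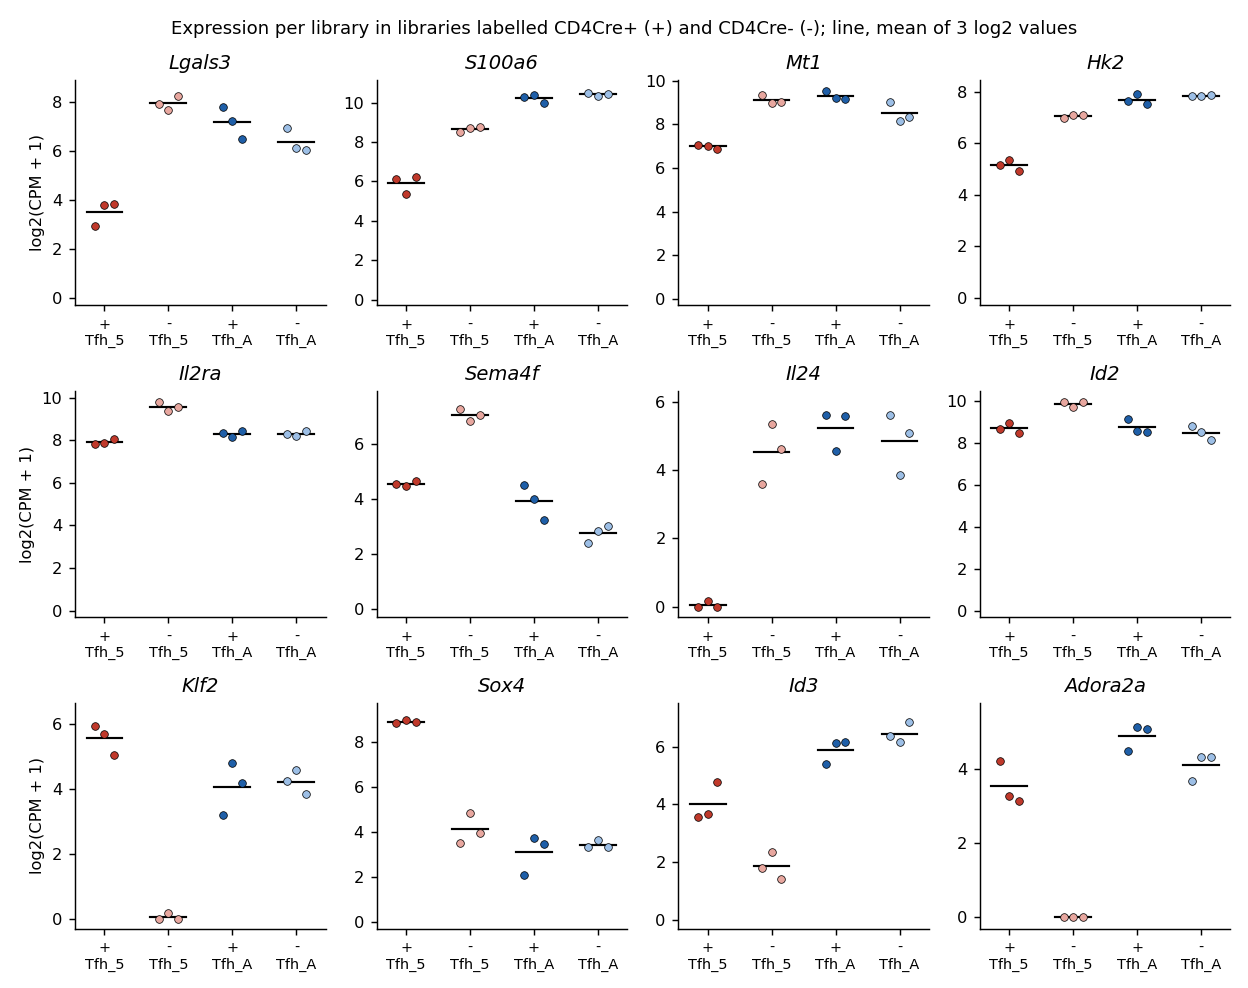
Expression of 12 genes is shown as log2(CPM + 1) for each library, with the 4 groups from left to right and a line at the mean of 3 libraries. In Tfh_5 the libraries labelled CD4Cre+ lie below those labelled CD4Cre- for the first 8 genes and above them for Klf2, Sox4, Id3 and Adora2a, while in Tfh_A the 2 labels lie closer together.

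Transcription factors of T cell fate made up 5 of the 12 named genes with the largest interactions above 0. Of 28 tested, 5 were called above 0 (Klf2, Id3, Sox4, Ikzf3 and Pou2af1) and 2 below (Id2 and Runx3), with a median of 0.627. The 5 became 3 without replicate 5 of the Tfh_A libraries labelled CD4Cre- and 8 with no filter on low counts. The 2 became 1 in the 12 libraries alone and without replicate 2 or replicate 4 of the Tfh_A libraries labelled CD4Cre-, replicate 1 or replicate 3 of those labelled CD4Cre+, or replicate 1 of the Tfh_5 libraries labelled CD4Cre+, and Runx3 was called in 10 of 18 alternatives. Klf2 encodes a Krüppel-like factor that maintains the quiescence and trafficking genes of naive T cells, and lies at chromosome 8, positions 72319062 to 72321654. It summed to 1039 counts in Tfh_5 libraries labelled CD4Cre+ and to 1 in those labelled CD4Cre-, a 975-fold higher level (95% counting interval 175 to 38550). The Tfh_A values were 8.22, 27.0 and 17.1 CPM in libraries labelled CD4Cre+, against 17.95, 23.01 and 13.2 CPM in those labelled CD4Cre-. The 2 labels thus overlapped in Tfh_A, and among the 4 groups Klf2 was nearly undetected in Tfh_5 libraries labelled CD4Cre- alone (interaction, adjusted p = 4.32e-06). In Tfh_1 it was low under the same label, with 1026 counts in libraries labelled CD4Cre+ and 32 in those labelled CD4Cre-. Within the CD4Cre+ label the culture difference was not called (1.45, adjusted p = 0.201).

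Sox4 encodes an HMG-box factor known from TGF-β responses, and lies at chromosome 13, positions 28948919 to 28953699. It had 464, 511 and 471 CPM in Tfh_5 libraries labelled CD4Cre+, against 10.4, 28.1 and 14.7 CPM in those labelled CD4Cre-. In Tfh_A it had 3.29, 12.3 and 9.94 CPM in libraries labelled CD4Cre+, against 8.91, 11.5 and 8.99 CPM in those labelled CD4Cre-. Sox4 was high in 1 of the 4 groups (interaction 4.94 ± 0.83, adjusted p = 0.00608). Pou2af1, a coactivator of octamer-binding factors, and Plekho1, which encodes a regulator of kinase signalling, had the same shape. Pou2af1 had 117, 127 and 117 CPM in Tfh_5 libraries labelled CD4Cre+, against 7.13, 2.71 and 0.335 CPM in those labelled CD4Cre-, and at most 14.6 CPM in Tfh_A. Its interaction of 5.63 ± 1.26 passed narrowly (adjusted p = 0.0445) and was called in 8 of 18 alternatives. Plekho1 had 218, 273 and 203 CPM in Tfh_5 libraries labelled CD4Cre+, against 12.2, 21.9 and 3.68 CPM in those labelled CD4Cre- (interaction 3.71 ± 0.74, adjusted p = 0.0145).

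Id2 and Id3, which both encode inhibitors of E-protein transcription factors, changed in opposite directions. Id3 had 10.9, 11.7 and 26.5 CPM in Tfh_5 libraries labelled CD4Cre+, against 2.46, 4.13 and 1.67 CPM in those labelled CD4Cre-. Its values in Tfh_A were 41.5, 68.7 and 70.3 CPM in libraries labelled CD4Cre+, against 81.9, 69.8 and 114 CPM in those labelled CD4Cre-. Id3 was lower in Tfh_5 than in Tfh_A under both labels, by more under the CD4Cre- label (interaction 3.11 ± 0.60, adjusted p = 0.00316 in edgeR, but adjusted p = 0.240 with limma-voom). Id2 had 403, 489 and 356 CPM in Tfh_5 libraries labelled CD4Cre+, against 1000.2, 831 and 978 CPM in those labelled CD4Cre-. Its Tfh_A values overlapped, at 554, 376 and 368 CPM under the CD4Cre+ label against 445, 364 and 284 CPM under the CD4Cre- label (interaction -1.42 ± 0.27, adjusted p = 0.00252).

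For 6 of the 140 genes the absolute genotype difference was larger in Tfh_A than in Tfh_5: A930005H10Rik, Ikzf3, Tnfrsf9, Aldoc, Gm11478 and Cd52. Ikzf3 encodes Aiolos, a zinc-finger factor of the Ikaros family. It had 56.2, 102 and 45.2 CPM in Tfh_5 libraries labelled CD4Cre+, against 43.6, 27.2 and 35.0 CPM in those labelled CD4Cre-. The Tfh_A values were 0 counts in all 3 libraries labelled CD4Cre+, against 0, 0.818 and 2.90 CPM in those labelled CD4Cre-, at least 10.8-fold lower. The labels were apart in Tfh_5, with CD4Cre+ higher, and met at 0 in Tfh_A. Its call (adjusted p = 0.00848) therefore rests on 37 counts, and was lost without replicate 5 of the Tfh_A libraries labelled CD4Cre- and with limma-voom (highest adjusted p 0.334). A930005H10Rik, a long noncoding RNA gene, had 7.71, 8.57 and 20.9 CPM in Tfh_5 libraries labelled CD4Cre+, against 2.20, 2.99 and 0.836 CPM in those labelled CD4Cre-. In Tfh_A it summed to 1 count in libraries labelled CD4Cre+ and 244 in those labelled CD4Cre-, a 213-fold lower level (95% counting interval 37.9 to 8448). The labels did not overlap in either culture and their order was opposite in the 2, and the call held in all 18 alternatives (adjusted p = 0.00326).

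Several genes that mark Tfh or Th17 cells were not called, which holds for nearly all genes tested. Il17a, the signature cytokine of Th17 cells, had 128, 156 and 156 CPM in Tfh_5 libraries labelled CD4Cre+, against 125, 202 and 167 CPM in those labelled CD4Cre-. In Tfh_A it had 6.39, 10.2 and 6.35 CPM in libraries labelled CD4Cre+, against 7.69, 5.62 and 5.29 CPM in those labelled CD4Cre-. The cultures were far apart and the labels overlapped in each, with an interaction of -0.48 ± 0.41 (adjusted p = 0.787). Il21, a cytokine of both cell types, had an interaction of -0.28 ± 0.40 (adjusted p = 0.942). Icos, a costimulatory receptor of Tfh cells, had 100.3, 107 and 139.9 CPM in Tfh_5 libraries labelled CD4Cre+, against 47.7, 52.0 and 62.2 CPM in those labelled CD4Cre-. Its Tfh_A values overlapped (323, 259.7 and 274 CPM under the CD4Cre+ label against 304, 198 and 234 CPM under the CD4Cre- label). The interaction of Icos, 0.88 ± 0.34, was not called (adjusted p = 0.259). For Cxcr5, Pdcd1 and Tcf7, which mark or direct Tfh cells, the interactions were 0.40 ± 2.44, 0.30 ± 0.56 and 1.76 ± 3.06 (adjusted p = 1, 0.977 and 0.972), and errors of this size do not show that the labels act alike in the 2 cultures.

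Across the other lists few genes were called. The Tfh list had 2 of 23 tested genes above 0 (Id3 and Pou2af1) and 0 below, the naive and memory list 2 above (Klf2 and Id3) and 1 below (Il7r) of 21, and the T cell receptor activation list 1 above (Nr4a1) and 1 below (Tnfrsf9) of 27. Below 0 were 2 of 14 on the regulatory T cell list (Il2ra and Tnfrsf9), 2 of 21 on the p53 list (Bcl2 and Cdkn1a), 1 of 16 on the coinhibitory and costimulatory list (Tnfrsf9), 1 of 15 on the Th1 list (Runx3) and 1 of 24 on the cholesterol list (Fdps). The 2 genes of the p53 list became 0 without replicate 5 of the Tfh_A libraries labelled CD4Cre-. They became 1 with limma-voom, in the 12 libraries alone, and without replicate 2 or replicate 4 of the Tfh_A libraries labelled CD4Cre-, replicate 5 of the Tfh_5 libraries labelled CD4Cre-, replicate 1 or replicate 3 of the Tfh_A libraries labelled CD4Cre+ or replicate 3 of the Tfh_5 libraries labelled CD4Cre+. The Tfh list had 1 gene called in the 12 libraries alone and without any library other than replicate 2 or replicate 5 of the Tfh_5 libraries labelled CD4Cre- or replicate 1 of the Tfh_A libraries labelled CD4Cre+. The regulatory T cell list had 1 in the 12 libraries alone and without replicate 1 of the Tfh_A libraries labelled CD4Cre+, and the naive and memory list 1 above 0 with limma-voom. The 3 genes of the IL-2 receptor and STAT5 list became 5 with no filter on low counts and without replicate 3 of the Tfh_5 libraries labelled CD4Cre+. They became 4 without replicate 3 of the Tfh_A libraries labelled CD4Cre+. The count was 2 without replicate 2, 4 or 5 of the Tfh_A libraries, or 2 or 5 of the Tfh_5 libraries, labelled CD4Cre-. It was also 2 without replicate 1 of the Tfh_A or replicate 6 of the Tfh_5 libraries labelled CD4Cre+. Nr4a1 was called in 9 of 18 alternatives (highest adjusted p 0.413). In edgeR 0 were called among 14 reported c-Maf targets, 15 interleukin-6 and STAT3 genes, 22 interferon genes, 22 chemokine receptor and migration genes, 39 proliferation genes and 7 Th2 genes. At an unadjusted p under 0.05 there were 2 genes each among the c-Maf targets and the Th2 genes, 4 among the interleukin-6 and STAT3 genes and 3 in each of the other 3 lists, where 10.9% of all genes tested had such a p. With 1.19% of all genes called, counts of 0 in lists of this size are near the background. DESeq2 called 1 c-Maf target and 1 interleukin-6 and STAT3 gene, and limma-voom 1 interleukin-6 and STAT3 gene and 1 Th2 gene. Medians of these 6 lists lay between -0.825 (Th2) and 0.39 (chemokine receptors).

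**Figure D5:**
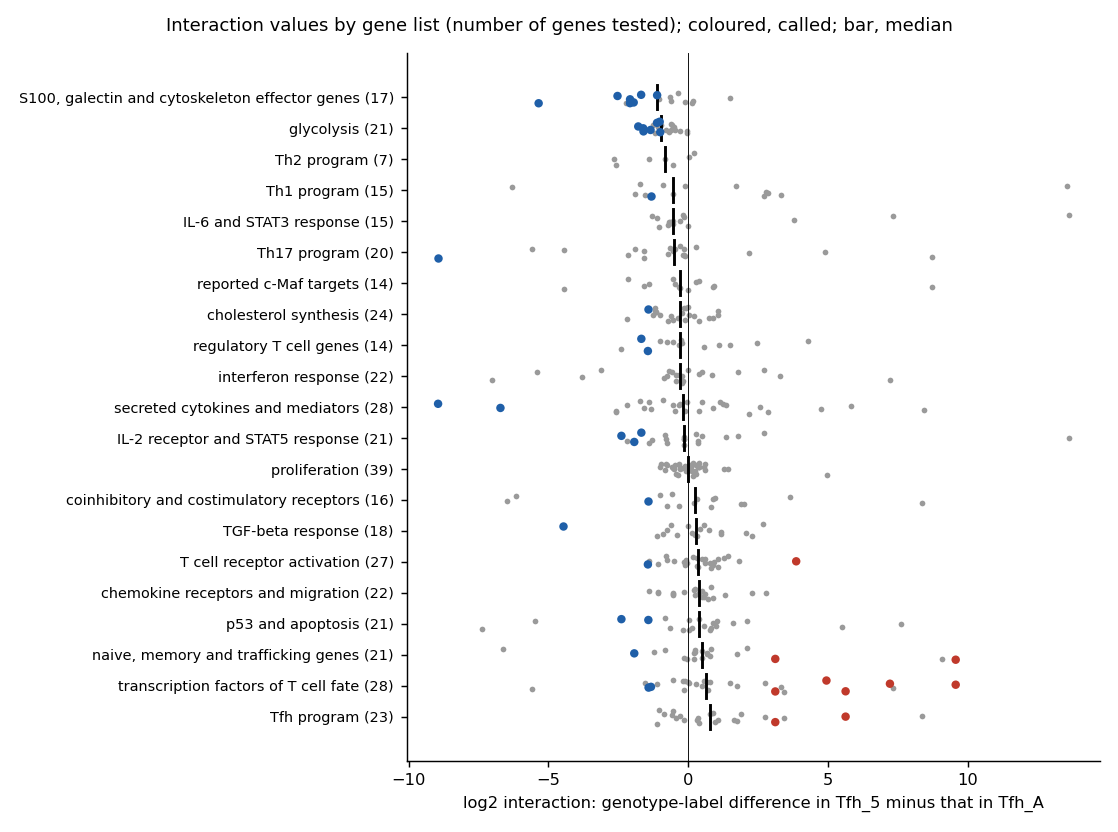
Interactions (log2 genotype difference in Tfh_5 minus that in Tfh_A) of the tested genes of 21 lists are shown as points, with called genes in red above 0 and blue below 0 and a bar at each median. Lists run from the lowest median at the top (-1.11, S100, galectin and cytoskeleton) to the highest at the bottom (0.786, Tfh). Called genes of the glycolysis list lie close together, fitted values of genes with a group at 0 counts depend on the prior count, and called genes above 0 stand mainly in the transcription factor list.

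2 of the 4 tested B cell markers were called below 0, H2-Ab1 and Ebf1. H2-Ab1, a chain of an MHC class II molecule, had 19.0, 16.1 and 5.42 CPM in Tfh_5 libraries labelled CD4Cre+, against 69.6, 44.3 and 59.9 CPM in those labelled CD4Cre- (interaction -3.12 ± 0.46, adjusted p = 6.52e-05). The summed level of the 16 markers was 16.7 to 28.4 CPM in Tfh_5 libraries labelled CD4Cre+ and 53.9 to 81.7 CPM in those labelled CD4Cre-. In Tfh_A it was 115 to 174 CPM under the CD4Cre+ label and 72.6 to 94.7 CPM under the CD4Cre- label. Ms4a1, Cd79b, Pax5, Blk and Fcer2a were at 0 counts under both labels in Tfh_5, and the part of B cells in other results was not tested. H2-Ab1 carried most of these sums, with means of 13.5 CPM in Tfh_5 libraries labelled CD4Cre+ and 57.9 CPM in those labelled CD4Cre-, and of 112 CPM and 55.5 CPM in Tfh_A libraries labelled CD4Cre+ and CD4Cre-. Ighm, Igkc and Cd79a were higher in Tfh_5 libraries labelled CD4Cre+ instead. Ighm summed to 147 counts in libraries labelled CD4Cre+ and 52 in those labelled CD4Cre-, Igkc to 20 in those labelled CD4Cre+ and 0 in those labelled CD4Cre-, and Cd79a to 14 in those labelled CD4Cre+ and 0 in those labelled CD4Cre-. In bulk RNA, fewer cells of a type and less RNA per cell cannot be told apart.

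In the third culture, Tfh_1, which is not part of the interaction, 33 of the 140 genes had a called genotype difference (0.852% of all genes tested were called there). Of these, 32 had the direction of the interaction, 13 of the 39 genes above 0 and 19 of the 101 below 0, and the exception was Cd52. Klf2, Sox4, Plekho1 and Pou2af1 were among the higher ones, and Lgals3, S100a6, S100a4, Vim, Il24, Il2ra and Hk2 among the lower ones. Lgals3 averaged 66.2 ± 13.3 CPM in Tfh_1 libraries labelled CD4Cre+ and 215 ± 31.7 CPM in those labelled CD4Cre- (SD, n = 3 each), a difference of -1.70 ± 0.30 (adjusted p = 0.000957). Mt1 averaged 719 ± 25.1 CPM in Tfh_1 libraries labelled CD4Cre+ and 938 ± 107 CPM in those labelled CD4Cre- (SD, n = 3 each), a difference that was not called (-0.38 ± 0.19, adjusted p = 0.479). The Tfh_1 libraries share the fit and carry the same replicate numbers on each side, so they are not an independent test if a number stands for an animal.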

How the data were processed

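RNA was read from the 3' end of transcripts in 18 libraries, 12 of them (3 in each of 4 groups) used in the interaction. The authors deposited 1 table per library of estimated counts per gene identifier. Of all values in a table, zeros included, 11.7% to 18.1% are not whole, so the share among values above 0 is larger. STAR 2.7.2b and featureCounts 1.6.4 are named in the submitters' processing notes; the labels do not say how reads with several matches were shared. Values were rounded to whole counts, although count tests had been planned for whole counts. Symbols and positions were matched by gene identifier to RefSeq (GRCm38.p6) for 25275 of 27179 identifiers.

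edgeR 4.0.16 (R 4.3.3) was used with TMM factors, its own filter on low counts (11735 genes kept), group means over 18 libraries and the robust quasi-likelihood test, with Benjamini-Hochberg adjustment at 0.05. SEs are the absolute log2 value over the root of F. CPM values use TMM-scaled library sizes. Against a group at 0 counts, folds use a floor of 3 counts over the group, and against 1 to 3 counts an exact 95% interval of the ratio, which covers counting error only. The steps were run on simulated whole counts with 1 spread for all genes, lower than the common estimate in these data. That run checks the steps and not the error rate here. Alternatives used DESeq2 1.42.0, limma-voom (limma 3.58.1), other size factors, no filter, fewer libraries and a replicate block.

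The members and gene lists (21 programs, 7 marker lists, 551 of 554 entries matched) were chosen with earlier results of these data known. Named by rule were Maf, the 12 largest interactions each way with at least 10 CPM in a group, up to 3 called genes per list and a panel of 15 genes. Other genes named, and the metal and hypoxia motifs, were chosen after their values were seen. Counts per list under the alternatives were also added then. The result of 1 called gene and its list is not reported here.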

Additional observations from a re-analysis of the deposited data

Results flagged for a closer look

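For 39 of the genes named by rule the genotype difference in Tfh_5 and that in Tfh_A differed, by the interaction term itself (edgeR's quasi-likelihood test, adjusted p under 0.05 over all genes tested). Values are log2, the difference in Tfh_5 minus that in Tfh_A, so a negative value means a lower level in libraries labelled CD4Cre+ relative to those labelled CD4Cre- in Tfh_5 than in Tfh_A. Interactions above 0 were 5.63 (Pou2af1), 4.94 (Sox4), 4.17 (Marcksl1), 4.03 (St6gal1), 3.86 (Nr4a1), 3.71 (Plekho1), 3.22 (Ulk1) and 3.11 (Id3). Those below 0 were -6.71 (Penk), -5.96 (Guca1a), -1.33 (Runx3), -1.68 (Il2ra), -1.44 (Tnfrsf9), -2.39 (Bcl2), -1.93 (Il7r) and -1.79 (Hk2). Further ones below 0 were -1.61 (Bnip3), -1.001 (Pgk1), -1.44 (Fdps), -1.43 (Cdkn1a), -5.35 (Lgals3), -2.53 (S100a6), -2.08 (Vim), -1.42 (Id2) and -2.08 (S100a4).

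The other 14 of the 39 genes had a group with 0 or 1 count, so that their fitted values depend on the prior count and are no measure of size. Above 0 these were 9.80 (A930005H10Rik), 9.56 (Klf2), 8.58 (Adora2a) and 7.21 (Ikzf3). Below 0 they were -9.84 (Plcxd1), -9.70 (Dusp28), -9.59 (Ermn), -9.52 (Pask), -9.42 (Cstdc4), -9.27 (Nkain1), -9.12 (Adora2b), -8.96 (Vegfa), -8.95 (Il24) and -6.26 (Gap43).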

How the results depend on the processing

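The 140 called interactions (39 above 0, 101 below 0) became 235 with no filter on low counts (71 above, 164 below), 245 with DESeq2 (74 above, 171 below) and 88 in a fit of the 12 libraries alone (20 above, 68 below), and 129, 140 and 83 of the 140 genes were among these. Other size factors gave 138, limma-voom 148 and leaving out the 2 most abundant identifiers 140. Leaving out 1 library gave 81 to 164 genes, 18 to 49 above 0 and 63 to 120 below. The count moved by more than 1.5 times without replicate 1 of the Tfh_A libraries labelled CD4Cre+ (81) and replicate 5 of those labelled CD4Cre- (87), and the count above 0 also without replicate 4 of those labelled CD4Cre- (24). Of the 40 genes named by rule and called (39 of them with values given above), 19 were called in all 18 alternatives without a block, and 21 were lost in at least 1, of which 13 in limma-voom and 10 in the 12 libraries alone. Reversed signs appeared for genes that were not called. Cxcr5 was 0.40 and became -2.56 without replicate 4 of the Tfh_A libraries labelled CD4Cre- and -0.17 without replicate 5 of the Tfh_5 libraries labelled CD4Cre-, in a range of -2.56 to 1.42 over left-out libraries. Pdcd1 was 0.30 and became -0.15 without that replicate 4, in a range of -0.15 to 0.62. The cause was not tested.

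Replicate numbers are shared between cultures within a label. Same-numbered libraries correlated at -0.001 to 0.118 in their deviations from group means over 6449 genes, so the numbers were not taken as pairs. With the number as a replicate block 135 genes were called over 18 libraries (34 above 0, 101 below) and 68 in the 12 libraries alone (17 above, 51 below), and Cxcr5 became -0.38 in the block over 18 libraries.

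With 3 libraries a group, genes with a group at 0 counts have no measured size, and folds against them are lower bounds that cover counting error only.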
